A study of Mus musculus with 3 samples.

Results

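Imprinted genes are transcribed mainly from the maternal or mainly from the paternal chromosome, and many of them set the rate of growth before and shortly after birth. Among paternally expressed members of this class, Igf2 encodes an insulin-like growth factor, Dlk1 a membrane protein with epidermal growth factor repeats that holds back fat cell differentiation, Peg3 and Plagl1 zinc finger proteins, and Mest a protein of the hydrolase fold family. Among maternally expressed members, Cdkn1c encodes the cyclin-dependent kinase inhibitor p57, Grb10 an adaptor that dampens insulin and IGF receptor signalling in most tissues, and H19, Meg3 and Rian give long non-coding RNAs. These 10 genes were examined by gene symbol in every probe set of the array that carries 1 of the symbols alone. Probe sets were found for 9 of the 10 genes, 21 in all, out of 22690 probe sets on the array, of which 20393 carry a single gene symbol. No probe set carries H19 alone, so H19 has no level here.

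RNA was measured on 3' expression arrays in 3 samples of normal mouse muscle, muscle 1, muscle 2 and muscle 3, with 1 array each. The labels give their genotype only as littermate control, without naming alleles, and their age as 3 to 6 weeks. The sources used here do not say which muscle was taken, whether the samples came from separate animals, or whether these littermates received the tamoxifen metabolite that started tumours in the study's other mice. The muscles served as the normal reference for tumours derived from Pax7-expressing satellite cells, and the tumours were not analysed here, so there is 1 group and no contrast between groups. All levels are log2 RMA values, and the mean ± SD is over the 3 muscles (n = 3). Parental origin cannot be read from these values, since a probe set measures the RNA of both chromosomes together. In whole tissue, fewer cells of a type and less RNA per cell cannot be told apart.

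Each array had a median of 6.12, but RMA quantile normalizes arrays, so like medians follow from the processing. Pearson's r across the 11136 probe sets above background in at least 1 muscle, which are not independent replicates, was between 0.990 and 0.994. Over these probe sets the SD of the difference was 0.17 between muscles 1 and 2. It was 0.22 between muscles 1 and 3 and 0.23 between muscles 2 and 3. A probe set was called above background in a muscle when it exceeded the 95th percentile there of 85 probe sets for 65 genes typical of other organs, such as testis, brain and pancreas. That level was 5.97 for muscle 1, 6.02 for muscle 2 and 6.17 for muscle 3. All 12 muscle fibre markers, Acta1, Ckm, Ttn and Myh4 among them, were above background in every sample, as the tissue label says. The share over all genes was 56.4%. Binding strength differs between probe sets, so no ranking between genes is given, and a probe set below background may belong to an expressed gene.

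The locus that drops out by this rule carries a microRNA gene inside the H19 transcript. The microRNA miR-675 is cut from H19 RNA, and the array's annotation gives a probe set for this locus both names. The mature arms of miR-675 are shown because the probe set carries the name of their gene beside H19. Capitals mark the seed, bases 2 to 8, by which a microRNA pairs with its targets. The sequences are from RefSeq (GRCm38.p6), on the minus strand, at chr7:142577112-142577133 for the 5p arm and chr7:142577078-142577099 for the 3p arm. The array does not measure mature microRNAs.
mmu-miR-675-5p: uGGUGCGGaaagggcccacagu
mmu-miR-675-3p: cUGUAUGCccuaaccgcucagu

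Imprinted control often works through methylation of CG dinucleotides, so the bases before the annotated starts were read as a feature that the choice of genes did not use. RefSeq start regions matched 8 of the 10 members, with 15 starts in all; H19 and Cdkn1c had no entry. In the 250 bases before a start, the count of CG ran from 0 to 40, with a median of 8, against a median of 6 over all 32851 start regions. Of the 15 windows 11 were above that median, against 46.3% of all windows. Several starts of a gene overlap or lie near each other, so the windows are not independent. The windows printed are the one with the most CG, before a Grb10 start, that before the Rian start, which held none, and 1 of Meg3, whose RNA comes from the same cluster as Rian. Capitals mark CG, and in the Meg3 window also TATAA, a letter pattern of the TATA box. TATAA on either strand occurred in 3 of the 15 windows, those of Meg3 and 2 overlapping ones of Mest, against 22.8% of all windows. The sequences are from RefSeq (GRCm38.p6), at chr11:12037421-12037670 on the minus strand, chr12:109540746-109540995 on the plus strand and chr12:109603695-109603944 on the plus strand.
Grb10: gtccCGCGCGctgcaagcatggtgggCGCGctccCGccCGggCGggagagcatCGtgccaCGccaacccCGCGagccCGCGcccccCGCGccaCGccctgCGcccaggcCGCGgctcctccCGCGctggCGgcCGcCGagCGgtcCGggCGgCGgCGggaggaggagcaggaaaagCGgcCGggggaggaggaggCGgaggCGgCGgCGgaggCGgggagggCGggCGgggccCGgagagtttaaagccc
Meg3: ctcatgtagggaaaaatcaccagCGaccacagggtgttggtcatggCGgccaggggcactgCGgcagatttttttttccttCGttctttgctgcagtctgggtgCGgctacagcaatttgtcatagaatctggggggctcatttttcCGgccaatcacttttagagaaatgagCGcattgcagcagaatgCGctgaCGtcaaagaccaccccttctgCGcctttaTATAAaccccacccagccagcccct
Rian: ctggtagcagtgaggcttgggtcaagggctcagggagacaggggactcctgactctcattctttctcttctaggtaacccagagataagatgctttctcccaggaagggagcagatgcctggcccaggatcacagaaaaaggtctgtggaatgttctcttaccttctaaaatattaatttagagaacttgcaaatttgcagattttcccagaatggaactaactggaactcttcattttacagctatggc
The Grb10 window held 40 CG, a count reached by 1.31% of all windows, the Meg3 window held 10, and the Rian window held 0, as did 7.87% of all windows. These are counts of single starts and not of genes, since the window before the other Grb10 start held 8 and that before the other Meg3 start held 0. These counts describe letters, and methylation was not measured.

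All 9 measured members were above background in all 3 muscles by their highest probe set, against 56.4% of 12394 genes. The members were chosen with earlier results of these data known, so this comparison is not a test. A gene with more probe sets also has more chances to pass by its highest one. Over single probe sets the count was 13 of 21 in all 3 muscles, 2 in some muscles and 6 in none. Of all 20393 probe sets with a single symbol, 49.2% were above background in every muscle and 45.4% in no muscle. The highest probe set of each member varied little: the largest range between muscles, highest minus lowest, was 0.23 on the log2 scale, a 1.17-fold span, for Cdkn1c.

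**Figure D1:**
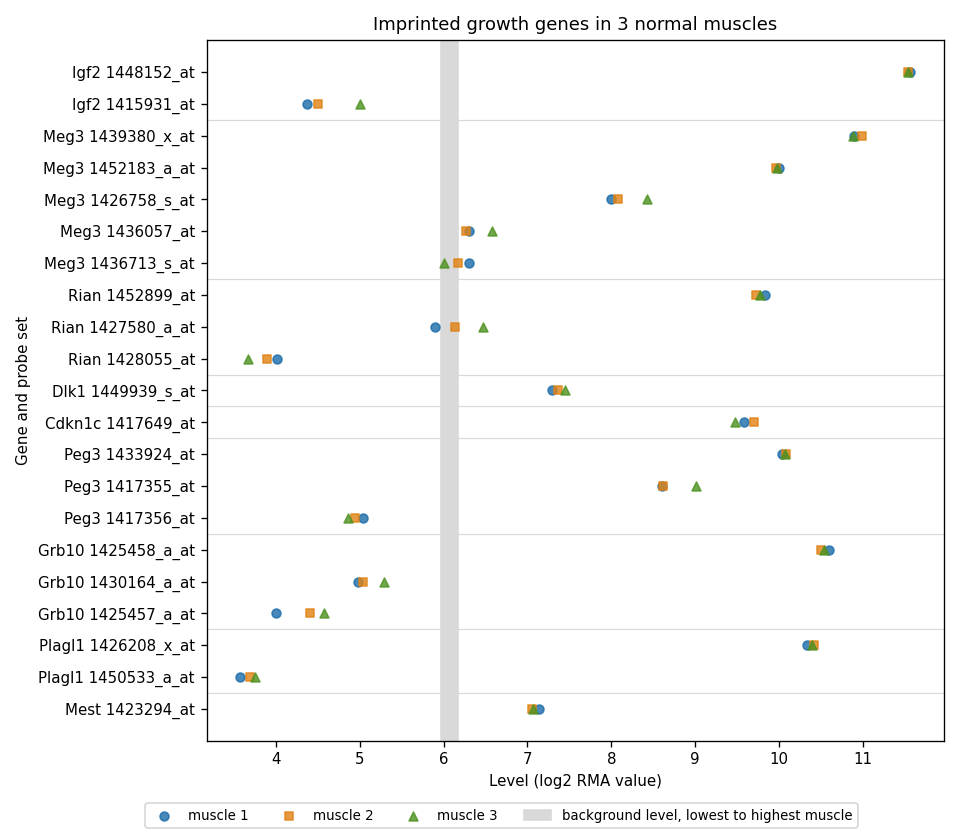
Level (log2 RMA value) of every probe set of the 9 measured imprinted growth genes in muscle 1, muscle 2 and muscle 3, with the background level of the muscles as a grey band from 5.97 to 6.17. The highest probe set of each gene lies to the right of the band in all 3 muscles, while 6 of the 21 probe sets lie to its left in every muscle.

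Igf2, the growth factor of the group, had the smallest spread of any highest probe set. By probe set 1448152_at it was at 11.57, 11.54 and 11.54 in muscles 1, 2 and 3, a mean of 11.55 ± 0.01. The 3 muscles thus lay within 0.03 of each other, a 1.02-fold span, and far above background. The other Igf2 probe set, 1415931_at, was below background throughout, at 4.37, 4.50 and 4.996, with muscle 3 highest.

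Dlk1 has a single probe set, 1449939_s_at, which was at 7.29, 7.36 and 7.45 in muscles 1, 2 and 3, a mean of 7.37 ± 0.08. Mest, also with a single probe set, 1423294_at, was at 7.13, 7.05 and 7.06, a mean of 7.08 ± 0.04. Dlk1 exceeded background by at least 1.28 in every muscle, and Mest by at least 0.89.

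Peg3, the zinc finger gene also known as Pw1 and used as a marker of stem and progenitor cells in muscle, was represented by 3 probe sets. Probe set 1433924_at was at 10.04, 10.09 and 10.07, a mean of 10.07 ± 0.02. Probe set 1417355_at was at 8.60 and 8.61 in muscles 1 and 2 and at 9.01 in muscle 3, a mean of 8.74 ± 0.23. Muscle 3 thus stood 0.40 above the mean of the other 2 by this probe set and 0.003 by the other. The third, 1417356_at, was below background at 5.04, 4.94 and 4.86.

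Plagl1, a transcription factor known to act on other imprinted genes, was at 10.33, 10.41 and 10.40 by probe set 1426208_x_at, a mean of 10.38 ± 0.04. The muscles did not differ by more than 0.08. Its other probe set, 1450533_a_at, was at 3.57, 3.69 and 3.75, below background in every muscle. The endings _x_at, _s_at and _a_at mark probe sets whose probes can bind several transcripts, of the same gene or of others. No probe set of Dlk1, Grb10 or Plagl1 is without such an ending, and the highest of Meg3 is also an _x_at probe set. Of the 10 member probe sets without these endings 7 were above background in all muscles, and they belong to 6 of the 9 genes.

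Cdkn1c, which blocks cyclin-dependent kinases and promotes exit from the cell cycle, was at 9.58, 9.70 and 9.47 by its single probe set 1417649_at, a mean of 9.58 ± 0.11. Muscle 2 was highest and muscle 3 lowest. Grb10 was at 10.60, 10.51 and 10.54 by probe set 1425458_a_at, a mean of 10.55 ± 0.05. Its other probe sets were below background in all 3 muscles, with 1430164_a_at at 4.97, 5.03 and 5.29 and 1425457_a_at at 4.00, 4.41 and 4.57. Muscle 3 was highest in both of these and lay between the other muscles in the bright one.

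The non-coding RNAs of the Dlk1 cluster were measured by 8 probe sets. Meg3 was at 10.90, 10.99 and 10.89 by 1439380_x_at, a mean of 10.93 ± 0.06, and at 10.00, 9.96 and 9.98 by 1452183_a_at, a mean of 9.98 ± 0.02. These bright probe sets of Meg3 moved by at most 0.10 between muscles. By 1426758_s_at it was at 8.002 and 8.08 in muscles 1 and 2 and at 8.43 in muscle 3, a mean of 8.17 ± 0.23. By 1436057_at it was at 6.31, 6.26 and 6.58, again highest in muscle 3. Near background the direction differed, since 1436713_s_at was at 6.30, 6.18 and 6.01 and muscle 3 was below background. Rian was at 9.83, 9.73 and 9.77 by 1452899_at, a mean of 9.78 ± 0.05. Its probe set 1427580_a_at was at 5.90, 6.13 and 6.47, above background in muscles 2 and 3 alone, and 1428055_at was below it at 4.01, 3.89 and 3.67. Muscle 3 was thus the highest of the 3 by 1 Rian probe set and the lowest by another.

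The members just inside and outside the background level were those of Meg3 and Rian. Meg3 1436057_at exceeded it by 0.24 in the muscle where it was closest. Rian 1427580_a_at fell short by 0.07 in muscle 1, and Meg3 1436713_s_at by 0.17 in muscle 3. Of the probe sets below it in every muscle, Grb10 1430164_a_at came nearest, with its smallest shortfall at 0.88.

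Probe sets of the same member were not always detected together. Of the 6 members with several probe sets, Igf2, Meg3, Rian, Peg3, Grb10 and Plagl1, all except Meg3 had a probe set above background in all muscles beside another below background in all. That is 5 of 6, against 39.8% of the 4958 genes with several probe sets and 36.4% of the 783 of them whose highest mean was at least 9.78, the lowest such value among these members. These counts have no test, and the annotation does not give where on a transcript a probe set binds. A statement that Igf2, Rian, Grb10 or Plagl1 RNA was present in all muscles therefore rests on 1 of their probe sets.

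Variation between muscles was tested against that of probe sets of like level. The name limma's variance test stands here for an F test of each probe set's variance against limma's prior variance for its level. By limma's variance test with Benjamini-Hochberg adjustment, 0 of the 15 member probe sets above background in at least 1 muscle varied in excess, against 0.153% of 11136 probe sets. The lowest adjusted p among members was 0.80. At an unadjusted p under 0.05 there were 2 members, Peg3 1417355_at at 0.017 and Meg3 1426758_s_at at 0.036, against 5.06% of all probe sets. No member had a range of 1 or more (2-fold), against 0.629% of all. The widest was 0.57, a 1.48-fold span, for Rian 1427580_a_at. The median SD of the 13 probe sets above background in all muscles was 0.05, against 0.08 over all such probe sets, and set against limma's prior SD for their level the median ratio was 0.84 for the members and 0.88 for all tested probe sets. A p that misses the threshold with 3 muscles does not show that the muscles were equal.

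**Figure D2:**
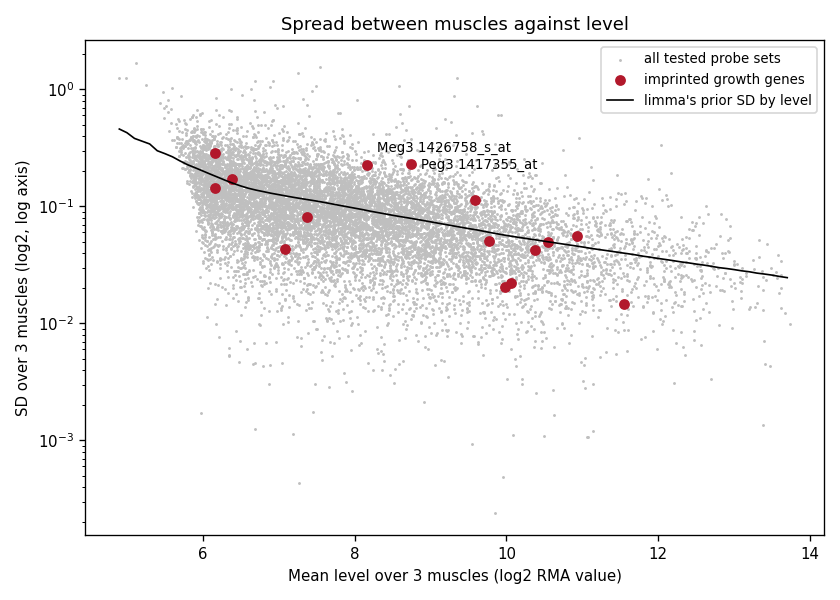
SD over the 3 muscles (log2, log axis) against mean level (log2 RMA value) for the 11136 tested probe sets in grey, with limma's prior SD by level as a line and the 15 tested member probe sets in red. The members lie on both sides of the line, and the labelled Meg3 and Peg3 probe sets, at SDs of 0.23 and 0.23, are those with an unadjusted p under 0.05.

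Muscle 3 was the farthest from the others in 6 of the 15 tested member probe sets, against 40.7% of all tested ones, a share near the background. It lay 0.45 above the mean of the other 2 for Rian 1427580_a_at, 0.40 for Peg3 1417355_at, 0.39 for Meg3 1426758_s_at and 0.30 for Meg3 1436057_at. It lay 0.23 below that mean for Meg3 1436713_s_at and, among the untested probe sets below background, 0.28 below it for Rian 1428055_at. It was the highest muscle in 5 of the 15, against 24.9% of all tested probe sets, and the lowest in 4, against 47.2%. Among probe sets below background in all muscles, muscle 3 was highest in 4 of 6 members, against 42.3% of all such probe sets. The median departure of the 15 in muscle 3 was -0.004, against -0.04 over all tested probe sets. The 2 members with an unadjusted p under 0.05 became 0 without muscle 3, and also 0 with no trend on level. With 1 probe set per gene the count was 0 as well. Neither of the 2 is the highest probe set of its gene, so that setting left both out before the test.

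Some measures outside the members differed in muscle 3. The nuclear RNA Malat1 was at 6.74, 6.56 and 9.33 by its highest probe set, which limma's variance test called at an adjusted p of 0.013. Its 5 probe sets departed in muscle 3 by 2.67, 2.37, 1.04, 0.42 and -0.18, the last below background in every muscle. Over the alternatives the adjusted p of the highest one ran from 0.0025 to 0.99, and the call ended without muscle 2, at 0.069, without muscle 3, with no trend on level, at 0.93, without a robust fit, at 0.087, and with the mean over probe sets, at 0.38. The 3' minus 5' level of the dap control RNA was 4.13, 3.99 and 3.04, and that of thr was 4.09, 3.91 and 2.82, while for Gapdh it was 0.33, 0.43 and 0.37 and for Actb 0.76, 0.77 and 0.61. The part of these measures in the departures of Peg3, Meg3 and Rian was not tested.

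**Figure D3:**
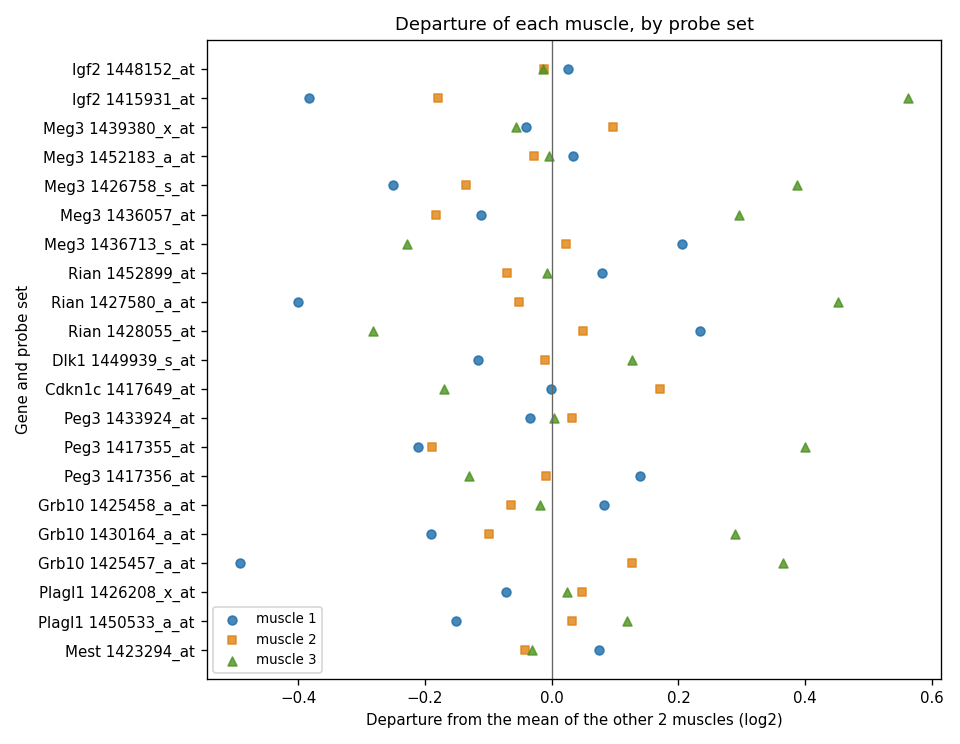
Departure of each muscle from the mean of the other 2 (log2) for each of the 21 member probe sets. The bright probe sets of Igf2, Peg3, Plagl1 and Grb10 stay near 0 in all muscles. Muscle 3 stands to the right for Igf2 1415931_at, Rian 1427580_a_at, Peg3 1417355_at and Meg3 1426758_s_at, among others. It stands to the left for Rian 1428055_at and Meg3 1436713_s_at, among others. Muscle 1 stands to the left for Grb10 1425457_a_at, Rian 1427580_a_at and Igf2 1415931_at, among others.

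Of 22 listed neighbours of the members in their imprinted domains 15 were measured, with 8 above background throughout, against 56.4% of all genes, and 7 below it throughout. Around Igf2, H19 and Cdkn1c, Ins2, Cd81, Tssc4, Slc22a18, Nap1l4 and Osbpl5 were above background, and Th, Ascl2, Kcnq1 and Phlda2 were below it. Ins2 was at 6.84 ± 0.04 by its single probe set, an _x_at one, and whether other transcripts gave this signal was not tested. In muscle 2, where background was 6.02, Slc22a18 was at 6.04 and Tssc4 at 6.26. The placenta regulator Phlda2 was at 4.40 ± 0.25 and the tetraspanin Cd81 at 10.80 ± 0.02. Beside Peg3, both Usp29 and Zim1 were below background, at 3.73 ± 0.23 and 2.92 ± 0.19. Copg2 beside Mest, at 6.42 ± 0.07, and Ddc beside Grb10, at 6.96 ± 0.05, were above it, while Phactr2 beside Plagl1 was below it at 5.31 ± 0.04. These neighbours were grouped after their values were seen. Rtl1 and Dio3 of the Dlk1 cluster were not analysed here.

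Across the wider list of other imprinted genes, 25 of 43 measured exceeded background in every muscle and 18 in no muscle, a share of 58.1% against 56.4% of all genes. Snrpn, a splicing protein gene, was below background at 5.46 ± 0.56 by its only probe set with a single symbol. Any Snrpn probe set that carries several symbols was left out by the rule. Ndn, which encodes necdin, a regulator of growth and differentiation, was at 9.78 ± 0.16. Magel2 was at 6.23 ± 0.13, just above background, and Mkrn3 below it at 2.94 ± 0.24. The median SD of the 25 was 0.09, and no detected gene of the list had a range of 1 or more.

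Of 13 signalling partners of Igf2 and Grb10, 10 were above background in all muscles, 1 in some and 2 in none, against 56.4% of all genes in all muscles. Igf1, the related growth factor, was at 10.53 ± 0.07, and Igf2r, the receptor that clears IGF2 and is itself imprinted, at 9.25 ± 0.09. Igf1r, which transmits the signal of both factors, was at 6.10, 6.05 and 5.86, so that muscle 3 was below background. The insulin receptor gene Insr was below it at 5.10 ± 0.22 by the higher of its probe sets.

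Regulators of imprints were above background in 10 of 14 cases and below it in 4, beside the same 56.4% of all genes. Ctcf, which binds the control region between Igf2 and H19, was at 8.65 ± 0.08. Trim28, a corepressor that protects imprints, was at 8.84 ± 0.06, and the methyltransferase Dnmt1 was at 7.53 ± 0.22. Zfp57, which recruits Trim28 in the early embryo, was below background at 4.87 ± 0.07.

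Genes of the growth programme that declines after birth were above background in all muscles in 3 of 9 cases, in some in 2 and in none in 4, against 56.4% of all genes in all muscles. Mycn was at 6.09 ± 0.04, below background in muscle 3, and E2f3 at 6.09 ± 0.35, above background in muscle 2 alone. Ezh2, a histone methyltransferase, was above background in all muscles at 7.30 ± 0.29. The RNA-binding protein gene Igf2bp1, whose product binds Igf2 mRNA, was below background at 4.10 ± 0.29. A difference in detection between this list and the imprinted members was not tested.

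Besides Cdkn1c, cyclin-dependent kinase inhibitors and their targets were above background in all muscles in 9 of 15 cases, in some in 3 and in none in 3, a share of 60.0% against 56.4% of all genes. The related inhibitors Cdkn1a and Cdkn1b were at 8.51 ± 0.06 and 9.10 ± 0.03, and Cdkn2a and Cdkn2b were below background at 3.32 ± 0.40 and 4.65 ± 0.30. Cdkn2c and Cdkn2d, of the same list, were above background in all muscles, at 8.47 ± 0.01 and 7.72 ± 0.04. Of 5 nuclear long non-coding RNAs measured, 3 were above background in all muscles, beside the same 56.4% of all genes. Neat1 was at 11.04 ± 0.01 and Xist, the RNA of the inactive X chromosome, at 10.88 ± 0.04, while Airn, the antisense RNA of the Igf2r domain, was below background at 5.82 ± 0.03.

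**Figure D4:**
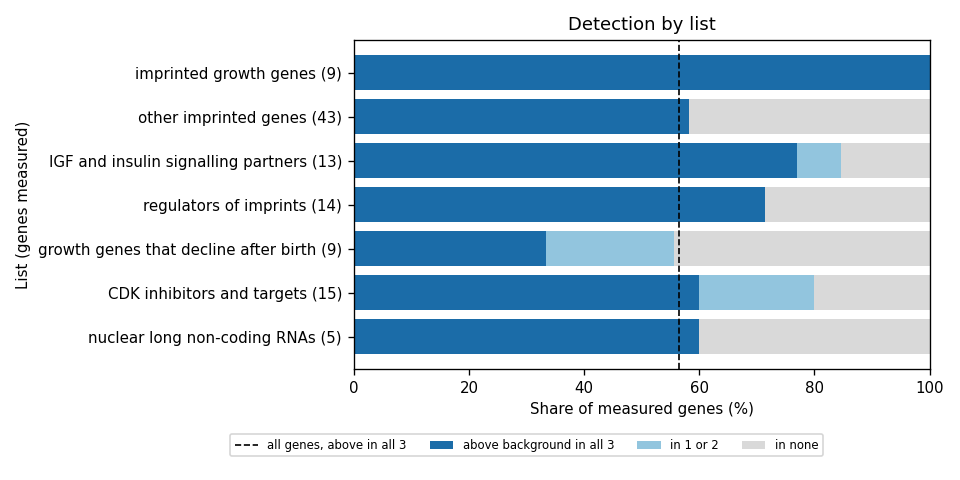
Share (%) of the measured genes of each list that were above background in all 3 muscles, in 1 or 2, or in none, by the highest probe set of each gene, with the number measured in brackets and the share of all genes above background in all 3 as a dashed line at 56.4%. The imprinted growth genes reach 100%, the other imprinted genes 58.1% and the growth genes that decline after birth 33.3%. The members and lists were chosen with earlier results of these data known, so the shares are not a test.

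Markers of several cell types were detected beside those of muscle fibres. Above background in all muscles were 7 of 11 satellite cell and myoblast markers, 8 of 8 fibroblast and matrix markers, 5 of 7 adipocyte and preadipocyte markers and 6 of 7 endothelial markers. For pericytes and smooth muscle the count was 6 of 7, for macrophages 3 of 6 and for Schwann cells 3 of 4. Of all genes 56.4% were above background in all muscles. The shares for satellite cells and myoblasts, 63.6%, and for macrophages, 50%, were near that. Pax7, the satellite cell gene of the study, was below background at 5.31 ± 0.19. Leptin (Lep), a fat cell hormone, had the only range of 1 or more among detected markers, at 5.94, 6.60 and 5.36, above background in muscle 2 alone. Which cell type each imprinted gene came from was not tested.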

How the data were processed

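The deposited values are on a log2 scale and were made by the authors with RMA, per the submitters' processing notes. RMA subtracts background, quantile normalizes and summarises probes, so it hides any change that most genes share. The sources used here give neither its version nor which arrays were normalized as a set. Per the labels' protocols, Trizol RNA was used and 500 ng was amplified and biotin labelled. Detection calls and probe signals were not used here, and the 3 arrays limit the precision.

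GEO's platform annotation gave 1 gene for 20393 of 22690 probe sets, several for 691 and none for 1606; the last 2 kinds were left out. Entrez numbers of 20364 matched RefSeq genes of GRCm38.p6, and no symbol changed. Coordinates are given only for RefSeq sequences, since the probe annotation names no build.

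Background was the 95th percentile of genes of other organs; 4 of its 65 genes were above it in all muscles. A gene took the level of the probe set whose mean was highest. Departures compare a muscle with the average of the other 2. Excess variance was tested against the prior variance of limma 3.58.1 (R 4.3.3), a robust prior that follows mean level. Each probe set's variance, with 2 degrees of freedom, was divided by that prior in a one-sided F test computed outside limma. For every probe set the prior's degrees of freedom were the largest that the fit gave, 6.12. The p-values were adjusted over 11136 probe sets by Benjamini-Hochberg, with 0.05 as threshold. The test was checked on simulated data. Nothing says that the samples are separate animals, so SDs and p-values cover the spread of these samples alone, and that may be technical.

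The members and lists were chosen with earlier results of these data known. Named are every member, the first 4 measured genes of related lists in written order, and detected list genes with a range of 1 or more. From cell type lists only some of these are given. The neighbours in imprinted domains, and Cdkn2c and Cdkn2d, were named after their values were seen. No gene of like pattern is named, because 3 samples of 1 group give no pattern that can be ranked. Python 3.11.15, numpy 2.4.6, pandas 2.3.3 and matplotlib 3.10.9 were used otherwise.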

Additional observations from a re-analysis of the deposited data

Results flagged for a closer look

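Probe set 1448194_a_at, which the annotation assigns to both Mir675 and H19 and which therefore entered no gene value, carried signal above background in all 3 muscles. Its levels in muscles 1, 2 and 3 were 12.72, 12.80 and 12.81, a mean of 12.78 ± 0.05 (SD, n = 3). The 3 muscles lay within 0.09 of each other. The signal cannot be given to either name from the annotation alone. RefSeq places the microRNA gene inside H19, and the array does not measure mature microRNAs.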

How the results depend on the processing

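No paired analysis was possible because the labels hold 1 group. The 13 member probe sets above background became 7 of 10 when the probe sets whose IDs mark several transcripts were left out, since fewer remained, 12 with the 99th percentile as background, and lay between 13 and 14 with each muscle omitted in turn. Quantile normalization and median centring gave 13 each. RMA had already quantile normalized the values, so these 2 scalings could move the levels little. By limma's variance test 0 members were called under all 12 alternatives run, with lowest adjusted p-values from 0.47 after quantile normalization to 0.99 without muscle 3, and from 0 to 2 members at an unadjusted p under 0.05. Over all probe sets the calls were 17, and became 27 after quantile normalization, 8 with the 99th percentile, 0 without a trend on level or without a robust fit, and 5, 1 and 2 without muscle 1, 2 and 3. A range of 1 or more was found for 0 members under all 8 alternatives run, a 1.5-fold limit among them. The 2 scalings moved member levels by at most 0.01 on the log2 scale, and leaving out a muscle moved them by at most 0.19. Of 105 list counts under the alternatives, 104 stayed within 1.5 times; endothelial markers fell from 6 to 3 with the 99th percentile. The number of arrays, and for probe sets near background their signal, limit what these values can show.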
